A study of Aspergillus nidulans with 6 samples.

Results

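Of the 468 peaks of KaeA-HA on *A. nidulans* chromatin, 4 are described here, on genes of the path from glucose to cytosolic acetyl-CoA and unsaturated fatty acids. They lie on *gpdA* (AN8041) in glycolysis, *aclA* (AN2435) and *aclB* (AN2436) at the formation of cytosolic acetyl-CoA, and *sdeA* (AN6731) at fatty acid desaturation. Other genes of the path also carried peaks. The 4 were chosen with earlier results of these data known, so the shares given for them describe a chosen set. All 4 rows were found in the peak table. All 4 peaks had higher normalized counts in each immunoprecipitated (IP) library than in any input library, as did 16.5% of all peaks. Of the 4, 3 (*sdeA*, *aclB* and *aclA*) were called higher in IP when the libraries were scaled over all peaks, beside 11.1% of all peaks. Under a scaling over only the 60 most enriched peaks, *aclB*, *aclA* and *gpdA* had values below 0. Of those 60 peaks 48 had been called higher in IP, so that scale is set by peaks mostly higher in IP.

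KaeA is the *A. nidulans* member of the Kae1 family, the catalytic subunit of the KEOPS complex, which is known for the modification of tRNA and, in budding yeast, has also been linked to transcription and telomeres. The data comprised 3 libraries of IP DNA and 3 of input DNA, which is sheared chromatin taken without precipitation. Only the IP libraries were precipitated, with the anti-HA antibody 12CA5. All 6 libraries came from mycelium of 1 strain grown in liquid minimal medium and crosslinked with 1% formaldehyde for 15 min. Every library, input included, thus carried the haemagglutinin-tagged allele *kaeA::HA* with *A.f. pyrG* as marker, and *pyrG89*, *argB2*, *pabaB22*, *nkuA*Δ::*argB* and a *riboB* marker, which the methods give as *riboB2* and the sample labels number differently from library to library. An IP from an untagged strain was not analysed here, so binding that depends on the tag and DNA recovered by the antibody without it cannot be told apart. The question of the comparison was which regions were recovered with KaeA-HA.

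In glycolysis, glucose is split into pyruvate, and glyceraldehyde-3-phosphate dehydrogenase, encoded by *gpdA*, carries out the oxidising step. Pyruvate enters the mitochondrion and is built into citrate, which a carrier exports. ATP citrate lyase, whose subunits are encoded by *aclA* and *aclB* in many ascomycetes, splits that citrate in the cytosol into acetyl-CoA and oxaloacetate, and the acetyl-CoA is carboxylated and built into saturated fatty acids, into which the stearoyl-CoA desaturase encoded by *sdeA* sets the first double bond.

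Reads on peaks summed to between 252925 and 377238 in the IP libraries and between 162458 and 278412 in the input libraries, and the smallest count of any peak was 59. IP replicate 2 stood apart from the other IP libraries: over all peaks, the chi-square statistic divided by its degrees of freedom was 9.82 and 11.04 between it and IP replicates 1 and 3 and 4.28 between those, against 1.96 to 2.15 among the input libraries. Against the input libraries the statistic was 9.54 to 13.7 for IP replicate 2 and 17.2 to 24.4 for IP replicate 3, with 252925 and 270991 reads on peaks. IP replicate 2 was thus nearer to input than IP replicate 3, and the cause was not tested. Values without IP replicate 2 are therefore given for each peak. Counts were scaled with TMM factors and the peaks were tested by the quasi-likelihood method of edgeR, with p-values adjusted after Benjamini and Hochberg over all 468 and a threshold of 0.05. In this test 52 peaks (11.1%) were called higher in IP and 24 (5.13%) were called lower. The log2 fold change, always IP minus input, had a median of -0.02 over the list. Because every scaled peak had been selected for enrichment on these same IP and input libraries, a fold change sets a peak beside the average listed peak rather than beside unlisted DNA. With 3 libraries a group, the smallest two-sided p of an exact permutation test is 0.1, so each call rests on the spread that the model shares among peaks.

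The *gpdA* peak lay on chromosome II of ASM1142v1 (577536 to 579375, 1840 bp) and covered 94.1% of the gene (577430 to 579237). It left free the first 106 bp of the gene, counted from the lower coordinate, and ran 138 bp past its other end. The summit was at 578545, inside the gene and 1115 bp from its lower end, or 61.7% of the way along it. The strand and the limits of exons and UTRs were not used here, so positions are given from the lower coordinate and not from the start of transcription. The authors' annotation placed the peak in a 5′ UTR, yet named as the gene *dewA*, 97955 bp away; the class is therefore reported as deposited only. The domains named in the translated peak were those of the enzyme. In the longest translated stretch with a hit, of 241 residues, the NAD binding domain of glyceraldehyde 3-phosphate dehydrogenase matched residues 1 to 61 (E-value 6.2e-19) and the C-terminal domain residues 114 to 231 (E-value 2.4e-54). A separate translated stretch of 74 residues matched the C-terminal domain again (residues 5 to 47, E-value 3.1e-12).

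On the *gpdA* peak the normalized counts were 2848, 2589 and 2630 in IP replicates 1, 2 and 3, against 2155, 2421 and 2286 in input replicates 1, 2 and 3. The groups did not overlap, but the lowest IP library exceeded the highest input library only 1.07-fold. The means were 2689 ± 139 in IP and 2287 ± 133 in input (SD, n = 3 each), and the log2 fold change of 0.23 (SE 0.08) did not pass the test (adjusted p = 0.0582). The call rested on single choices: without IP replicate 2 the value was 0.26 and passed (adjusted p = 0.00283), and without the peak that held the most counts, or with the likelihood ratio test or DESeq2, it passed as well. When only the 60 peaks that MACS2 gave a fold enrichment of at least 2 were scaled and tested, which changes the centre, the spread and the adjustment of p together, it turned to -0.23 and was called lower in IP (adjusted p = 0.00337). Of those 60 peaks 48 had been called higher in IP over all peaks, so a value below 0 there means lower than peaks mostly higher in IP.

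Per length, *gpdA* was the most covered of the 4 peaks in both kinds of library. It had 1461 normalized counts per kb in IP and 1243 in input, the 35th and the 55th highest of the 468 peaks, while the medians of all peaks were 668 in IP and 656 in input. Its pileup height at the summit of the merged IP, whose scaling is not stated, was 538, the 15th highest. Its fold enrichment over the local background of the merged input was 2.22 (−log10 q 56.6), against a median of 1.53 for all peaks. The flanking genes, AN8040 and *hdaA* (AN8042, a histone deacetylase), 1601 bp and 763 bp away, carried no peak, and the nearest other peaks were 89770 bp and 96892 bp away.

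**Figure D1:**
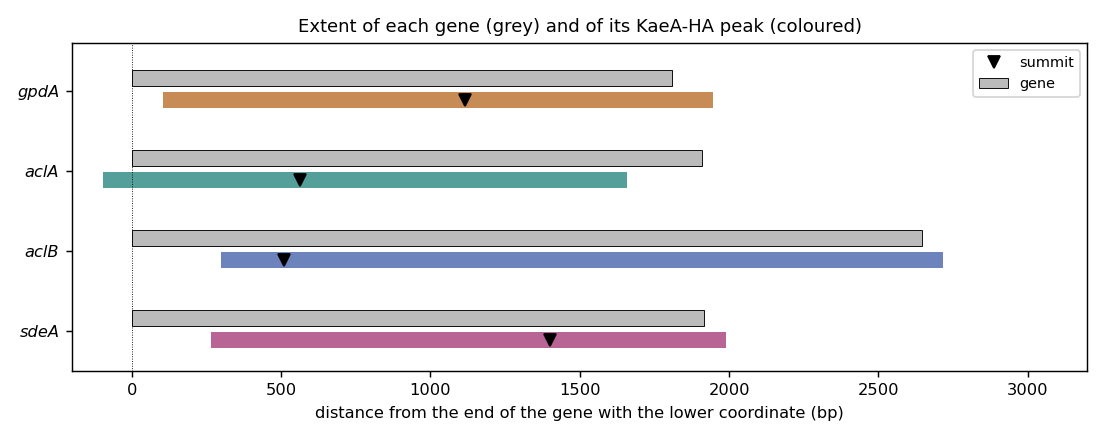
Extent of the *gpdA*, *aclA*, *aclB* and *sdeA* genes (grey bars) and of the KaeA-HA peak on each (coloured bars), drawn to scale as the distance in bp from the end of the gene with the lower coordinate; triangles mark the summits. Each peak spans most of its gene, from 86.2% for *sdeA* to 94.1% for *gpdA*, and each summit lies inside the gene.

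The genes of ATP citrate lyase are neighbours on chromosome VII, 1436 bp apart, and each had a peak of its own. The *aclA* peak (3886156 to 3887907, 1752 bp) began 95 bp before the lower end of the gene (3886251 to 3888159) and covered 86.8% of it. The *aclB* peak (3889894 to 3892313, 2420 bp) covered 88.7% of its gene (3889596 to 3892242) and ran 71 bp past the upper end. Between both peaks 1986 bp were left without one, and that gap held the space between the genes. The summits were at 3886815, 564 bp from the lower end of *aclA*, and at 3890106, 510 bp from the lower end of *aclB*, which is 29.6% and 19.3% of the way along these genes. The deposited annotation put both peaks in a 3′ UTR, with *flbC*, 62481 bp and 66219 bp away, as the gene. This class too is reported as deposited only and does not place the peaks at an end of *aclA* or *aclB*. AN2434, on the *aclA* side, and AN2437, 289 bp beyond *aclB*, carried no peak, and the next peaks were 27205 bp and 40839 bp away.

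The translated peaks gave domains of the lyase here too. The *aclA* peak gave the citrate-binding domain of ATP citrate lyase (residues 149 to 326 of 338, E-value 1.8e-88), the part of the enzyme that holds its substrate. The *aclB* peak gave, each in a separate translated stretch, a CoA-ligase domain (residues 58 to 181 of 377, E-value 9.1e-15), the C-terminal domain of citrate synthase (residues 4 to 115 of 146, E-value 7.5e-08), which is related in sequence to the citrate-cleaving part of the lyase, and a CoA binding domain (residues 8 to 64 of 82, E-value 1.6e-09).

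On the *aclA* peak the normalized counts were 1180, 1248 and 1239 in IP replicates 1, 2 and 3, against 971, 955 and 970 in input replicates 1, 2 and 3. The input libraries were nearly equal and every IP library was above them, the lowest of them 1.22-fold above the highest input library. The means were 1222 ± 37.1 in IP and 965 ± 9.09 in input (SD, n = 3 each), and the log2 fold change of 0.34 (SE 0.08) passed edgeR's test (adjusted p = 0.0036). It was 0.32 without IP replicate 2, and the adjusted p was at most 0.0372 when any 1 library was left out. The direction depended on the peaks that entered: with only those enriched at least 2-fold, the value was -0.13 and was not called (adjusted p = 0.222).

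On the *aclB* peak the normalized counts were 1826, 1732 and 1758 in IP replicates 1, 2 and 3, against 1258, 1298 and 1333 in input replicates 1, 2 and 3. All IP libraries were above all input libraries, the nearest of them 1.30-fold apart. The means were 1772 ± 48.1 in IP and 1296 ± 37.6 in input (SD, n = 3 each), and the log2 fold change of 0.45 (SE 0.08) passed edgeR's test (adjusted p = 0.000219). It was 0.47 without IP replicate 2. With only the peaks of at least 2-fold enrichment scaled and tested it was -0.01 and was not called (adjusted p = 0.854).

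The subunit genes had similar levels per length. The *aclA* peak had 698 normalized counts per kb in IP and 551 in input, and the *aclB* peak 732 in IP and 536 in input, so that both stood below the median of all peaks in input (ranks 410 and 433 of 468) and above it in IP (ranks 206 and 184). The pileup heights at the summits were 250 and 255 for *aclA* and *aclB*, with fold enrichments of 2.20 and 2.06 (−log10 q 25.5 and 22.0). The log2 fold change of *aclB* exceeded that of *aclA* by 0.11. Taken between libraries of the same number, the excess was 0.26, 0.03 and 0.05 for replicates 1, 2 and 3; the largest came from replicate 1. With the trend of fold change on peak length removed, the excess was 0.041; the difference was not tested.

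**Figure D2:**
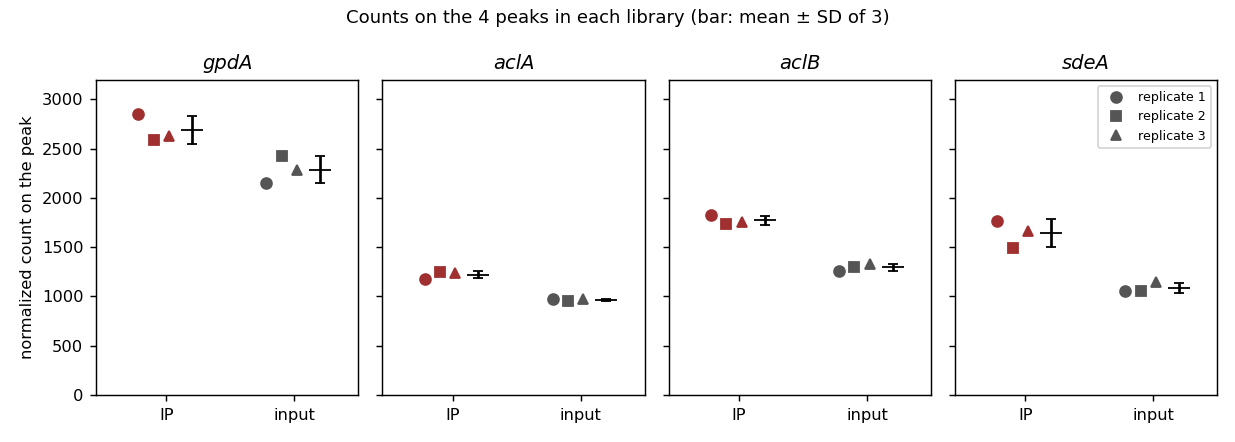
Normalized counts on the *gpdA*, *aclA*, *aclB* and *sdeA* peaks in the 3 IP libraries (left in each panel, red) and the 3 input libraries (right, grey); symbols stand for replicates and the bar beside them for the mean ± SD. The IP libraries are above the input libraries in all 4 panels, with the narrowest gap for *gpdA* (1.07-fold between the lowest IP and the highest input library) and gaps of 1.30-fold and 1.31-fold for *aclB* and *sdeA*; scaling centred on peaks of at least 2-fold enrichment, not shown, put *gpdA*, *aclA* and *aclB* below 0 on the log2 scale.

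The *sdeA* peak had the highest fold enrichment and the highest log2 fold change of the 4. It lay on chromosome I (2948740 to 2950466, 1727 bp), covered 86.2% of the gene (2948476 to 2950392) and passed its upper end by 74 bp. The summit was at 2949875, 1399 bp from the lower end and 517 bp from the upper end of the gene, or 73.0% of the way along it. The deposited class was again a 5′ UTR, with a gene 262912 bp away. A translated stretch of 383 residues held a fatty acid desaturase domain (residues 8 to 211, E-value 4.4e-18) and, after it, a cytochrome b5-like domain (residues 265 to 335, E-value 7.2e-17), which in fungal stearoyl-CoA desaturases passes electrons to the desaturase centre.

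On the *sdeA* peak the normalized counts were 1769, 1495 and 1665 in IP replicates 1, 2 and 3, against 1059, 1060 and 1144 in input replicates 1, 2 and 3. IP replicate 2 was the lowest of the IP libraries and was still 1.31-fold above the highest input library. The means were 1643 ± 138 in IP and 1088 ± 48.7 in input (SD, n = 3 each), and the log2 fold change of 0.60 (SE 0.08) passed edgeR's test (adjusted p = 3.24e-05). It was 0.66 without IP replicate 2. With only the peaks of at least 2-fold enrichment scaled and tested, its value was 0.13 and was not called among those 60 (adjusted p = 0.119).

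The pileup height at the *sdeA* summit was 370, the 58th highest of the 468 peaks, and the fold enrichment 2.93 (−log10 q 65.9), the 20th highest. Per length, *sdeA* had 951 normalized counts per kb in IP and 630 in input, of which the first was well above and the second below the medians of all peaks. The neighbouring genes AN6730 and AN10851, 1081 bp and 1516 bp away, carried no peak. The nearest peak, 8078 bp beyond, overlapped no gene and was not called.

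The 4 peaks thus had in common that each covered most of 1 gene, reached a fold enrichment above 2 and was long. Their median length was 1796 bp, against 397 bp for all peaks, their median fold enrichment 2.21 against 1.53, and their median log2 fold change 0.40 against -0.02. Of the 4, 3 were called higher and 0 lower in IP, beside 11.1% and 5.13% of all peaks, and in all 4 the IP libraries were above the input libraries without overlap, beside 16.5% of all peaks. Because the 4 were chosen with earlier results of these data known, these shares and medians describe a chosen set and test nothing. Length and enrichment went with the fold change over the whole list, with a Spearman's rho across peaks of 0.51 for length and 0.71 for fold enrichment; peaks are not independent replicates, and both measures came from the same libraries. Among the 60 peaks of at least 2-fold enrichment 48 were called higher in IP. Among the 25 peaks whose lengths lay within the range of the 4, these included, 9 were called higher in IP, and their median on the log2 scale was 0.20. When the trend of fold change on length was removed, *sdeA* kept its call (0.43, adjusted p = 0.00171), while *aclB* (0.21, adjusted p = 0.0997) and *aclA* (0.16, adjusted p = 0.237) lost theirs and *gpdA* was at 0.05.

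**Figure D3:**
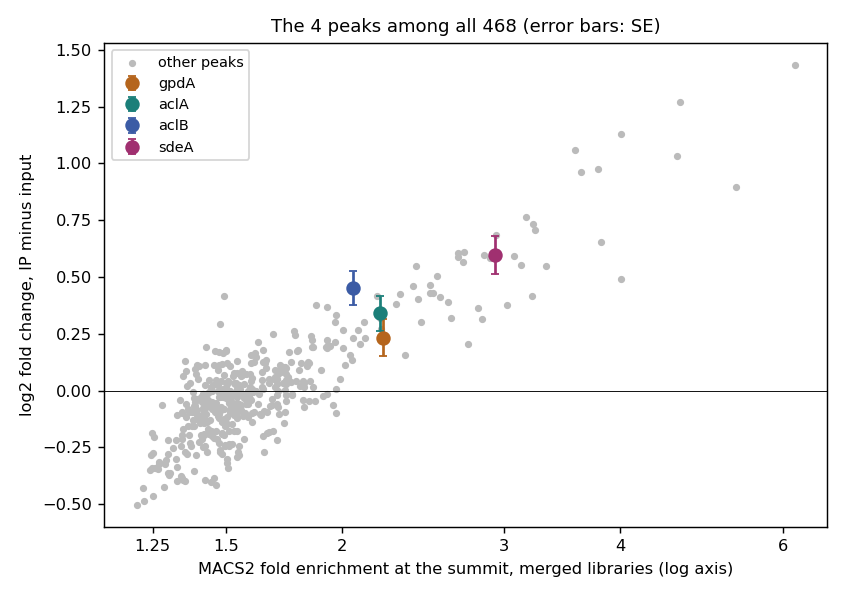
Log2 fold change (IP minus input, scaled over all peaks) against the fold enrichment that MACS2 gave on the merged libraries (log axis) for all 468 peaks, with *gpdA*, *aclA*, *aclB* and *sdeA* in colour and their SE as bars. The 4 peaks lie between 2.06- and 2.93-fold enrichment and between 0.23 and 0.60 on the log2 scale, within the cloud of other peaks; both axes come from the same 6 libraries, and with only peaks of at least 2-fold enrichment scaled *gpdA*, *aclA* and *aclB* fall below 0.

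In order of log2 fold change over all 468 peaks, *sdeA* was 17th, *aclB* 30th, *aclA* 45th and *gpdA* 61st. None of them stood off from its neighbours in this order. The peaks just above and below *sdeA*, on AN1549 and AN6973, were both at 0.60, those beside *aclB* were at 0.46 on *niiA* (AN1007, nitrite reductase) and 0.43 on AN7892, those beside *aclA* at 0.36 on AN9476 and 0.33 on AN3555, and those beside *gpdA* at 0.24 on AN3928 and 0.23 on AN6104. All of these distances were smaller than the SE of the 4 values.

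The profile of normalized counts over the 6 libraries was compared between peaks by Pearson's r of log2 values, as a description, since the points share libraries and mostly separate IP from input. *sdeA* was most like the peaks on AN8269, with an Hsp90 domain (r = 0.996, its log2 fold change 0.59), and AN10285, with pentatricopeptide repeats (r = 0.990). *aclB* was most like AN7170, with a helix-loop-helix DNA-binding domain (r = 0.997), whose log2 fold change of 1.43 was the highest of the list, and AN5129, with an Hsp70 domain (r = 0.995). *aclA* was most like *meaA* (AN7463), the main ammonium transporter (r = 0.993), and AN7170 (r = 0.978). *gpdA* had the least similar partners, AN5975, with mannitol dehydrogenase domains (r = 0.955), and AN1163, with an AAA ATPase domain (r = 0.944). Among the 4 themselves r was highest for *aclB* and *sdeA* (0.987) and lowest for *gpdA* and *aclA* (0.803).

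The other genes of the path were taken from a list of 27 that runs from glucose uptake to desaturation and includes the 4. Of these, 26 were found in the gene table and 15 overlapped a peak by at least 1 bp, while 11 had none, among them *pgkA* (phosphoglycerate kinase), *pycA* (pyruvate carboxylase) and *cit1* (citrate synthase). Besides the 4, 11 genes carried 18 peaks. Of these 18 peaks 1 was called higher in IP and 0 lower by edgeR, beside 11.1% and 5.13% of all peaks, and DESeq2 also called 0 lower. An unadjusted p under 0.05 was found for 1 of the 18, the called one, and for 121 of the 468. Their median log2 fold change was -0.01, close to that of all peaks.

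The called one was on *mstE* (AN5860), a glucose transporter, at the entry of the path. This peak (chromosome I, 1982923 to 1985405, 2483 bp) covered the whole gene, with a fold enrichment of 2.42. The normalized counts were 2086, 1896 and 1778 in IP replicates 1, 2 and 3, against 1444, 1446 and 1472 in input replicates 1, 2 and 3. The groups did not overlap, and the log2 fold change of 0.40 (SE 0.08, adjusted p = 0.00132) lay between those of *aclA* and *aclB*; as for these, the value was below 0 (-0.06) when only peaks of at least 2-fold enrichment were scaled and tested, and the call was lost once the length trend was removed (0.15, adjusted p = 0.347).

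Within glycolysis no peak passed edgeR's quasi-likelihood test with all libraries; *gpdA* did under the choices given above, and the other peaks did so under none of the alternatives. AN3223, with a phosphofructokinase domain, was at 0.02, *fbaA* (AN2875, fructose bisphosphate aldolase) at -0.01, *acuN* (AN5746, enolase) at 0.07 and *pkiA* (AN5210, pyruvate kinase), with a peak towards each end, at -0.06 and -0.01. The peaks of AN3223 and *fbaA* were 2052 bp and 1577 bp long and covered 71.1% and 92.1% of their genes, beside 1840 bp and 94.1% for *gpdA*, while their fold enrichments were 1.87 and 1.77. On the export of citrate, the peak of AN8274, a tricarboxylate carrier, covered 90.7% of its gene and was at 0.03. It is the step directly before ATP citrate lyase, and the IP and input counts overlapped there: 1009, 1035 and 999 in IP replicates 1, 2 and 3, against 962, 986 and 1025 in input replicates 1, 2 and 3.

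Between acetyl-CoA and the saturated fatty acid, the genes carried several peaks each, from 185 bp to 1271 bp long. *accA* (AN6126, acetyl-CoA carboxylase) had 2, at -0.06 and -0.09, *fasA* (AN9407), which encodes a subunit of fatty acid synthase, had 2, at 0.03 and 0.09, and *fasB* (AN9408), for the other subunit, had 5, between -0.06 and 0.03. None covered more than 19.3% of its gene, and none was called. AN4135, which carries no annotation in the sources used here, had a peak of 398 bp at -0.03. At desaturation, AN1037, whose peak held a fatty acid desaturase domain, was at 0.15 (SE 0.08, adjusted p = 0.3); its IP libraries, at 697, 653 and 728, were above its input libraries, at 643, 613 and 619, without overlap. On the path after *aclB* the *sdeA* peak was thus the only called one on a listed gene.

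**Figure D4:**
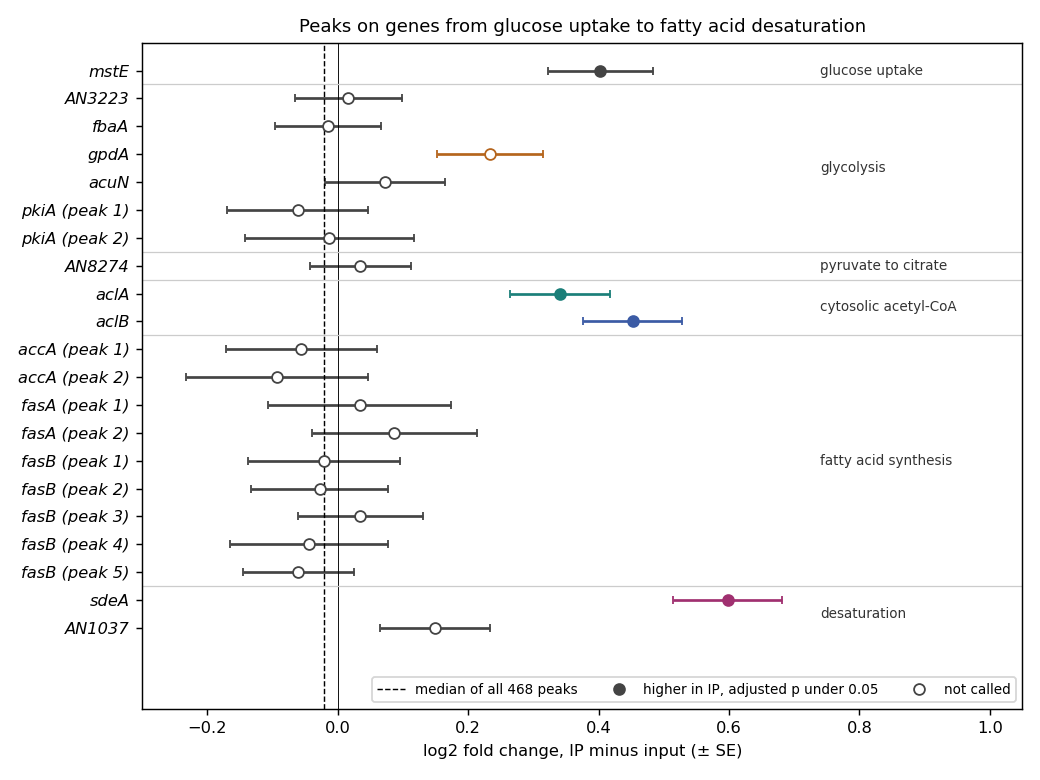
Log2 fold change (IP minus input, ± SE, scaled over all peaks) of the 21 peaks on listed genes with an annotation, ordered from glucose uptake at the top to desaturation at the bottom; filled points had an adjusted p under 0.05 and the dashed line marks the median of all 468 peaks, -0.02. *mstE*, *aclA*, *aclB* and *sdeA* are filled, at 0.40, 0.34, 0.45 and 0.60, and of these only *sdeA* stays above 0 when only peaks of at least 2-fold enrichment are scaled; all other peaks, *gpdA* included, are open.

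With library size alone in place of TMM the centre of all peaks moved to -0.13, and the values were 0.13 for *gpdA*, 0.24 for *aclA*, 0.35 for *aclB* and 0.50 for *sdeA*, the last 3 of them still called. A change of scaling moves all peaks by nearly the same amount, so it cannot alter the order of the 4. The sign of *gpdA*, *aclA* and *aclB* depended on which peaks were taken as the level of no change.

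**Figure D5:**
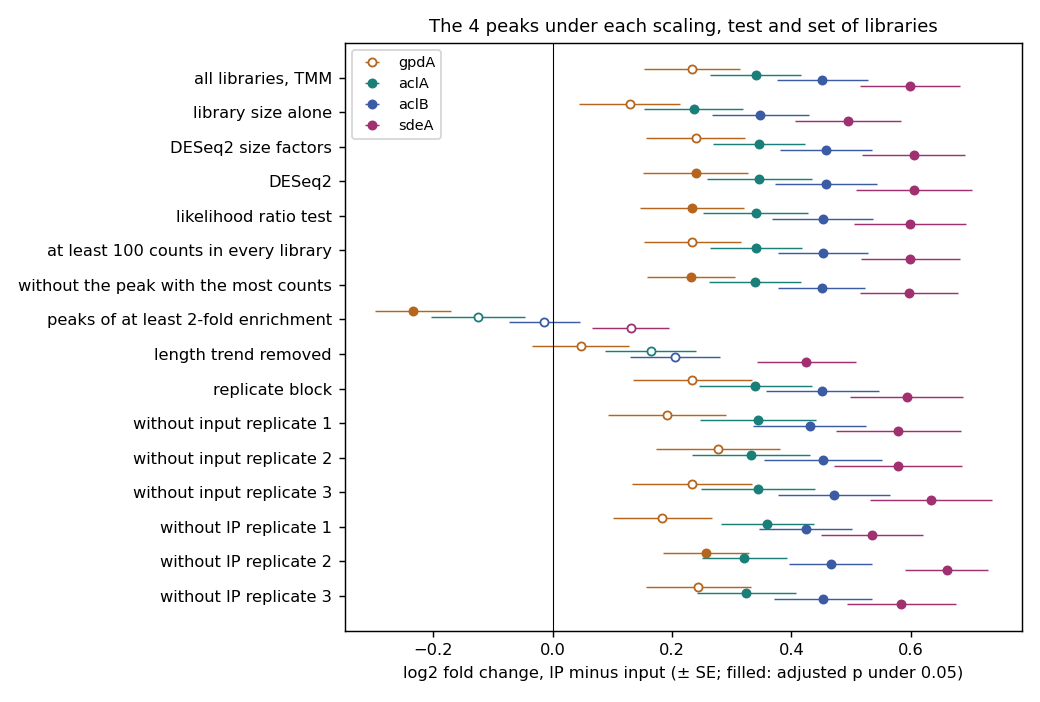
Log2 fold change (IP minus input, ± SE) of the *gpdA*, *aclA*, *aclB* and *sdeA* peaks with all libraries under TMM (top) and under each other scaling, test and set of libraries; filled points had an adjusted p under 0.05. With only peaks of at least 2-fold enrichment scaled and tested, *gpdA*, *aclA*, *aclB* and *sdeA* are at -0.23, -0.13, -0.01 and 0.13; with the length trend removed they are at 0.05, 0.16, 0.21 and 0.43.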

How the data were processed

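ChIP-Seq of the KaeA-HA strain was analysed in 3 IP and 3 input libraries, grouped by the sample labels. According to the methods and labels, Trimmomatic, BWA (genome ASM1142v1) and Picard were used on the reads, and MACS2 was run on IP replicates merged against merged input, so each peak was called once. The deposited peak list gives, as the authors' MACS2 run wrote them, the pileup signal at the summit, the fold enrichment ratio over local background and the −log10 of the p-value and of the q-value. The deposited counts per peak and library are not normalized; the counting mode and the treatment of multiply mapped reads are not given in the sources used here. The authors' table of edgeR results (log2 fold change, likelihood ratio score, p-value, FDR) was not used. Their ChIPseeker classes and InterProScan domains (E-value, residues) were read as deposited.

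Here, all 468 peaks were tested together with edgeR 4.0.16 (quasi-likelihood, TMM factors of 0.947 to 1.04, no block, R 4.3.3) and a Benjamini-Hochberg threshold of 0.05; no filter was set. The script was tested on simulated data. DESeq2 1.42.0 served as an alternative. To normalize, each count was divided by its library's effective size (total times TMM factor) and brought to the mean effective size of the 6. The labels call the replicates biological. The depth is that of reads on peaks; the totals of all mapped reads were not part of it. Peaks were joined to RefSeq genes of ASM1142v1 by an overlap of at least 1 bp; 10 of the 27 listed genes carry no name or role in the sources used here, and 1 of these had no match. Named were the 4 genes, listed genes with a peak, neighbouring genes and peaks, the 2 most similar peaks of each and the next in order; *pgkA*, *pycA* and *cit1* were named after the values were seen. The members and lists were chosen with earlier results of these data known.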

Additional observations from a re-analysis of the deposited data

How the results depend on the processing

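The number of called peaks was 76 with all libraries under TMM. It was 22 of 60 (12 higher, 10 lower in IP) when only peaks of at least 2-fold enrichment entered, 49 (38 higher, 11 lower) without the length trend and 98 (38 higher, 60 lower, against 52 and 24) with library size alone, and from 47 to 132 when 1 library was left out: 47 without IP replicate 1, 49 without input replicate 1 and 132 without IP replicate 2. *gpdA* was called with DESeq2 (0.24, adjusted p = 0.0331), with edgeR's likelihood ratio test (0.23, adjusted p = 0.0434), without the peak with the most counts (0.23, adjusted p = 0.0362) and without IP replicate 2; leaving out 1 library gave 0.18 to 0.28 for *gpdA*, 0.32 to 0.36 for *aclA*, 0.42 to 0.47 for *aclB* and 0.54 to 0.66 for *sdeA*. With only the 60 peaks of at least 2-fold enrichment scaled and tested, the log2 fold changes were -0.23 for *gpdA*, -0.13 for *aclA*, -0.014 for *aclB*, 0.13 for *sdeA* and -0.065 for *mstE*, where the scale is set by peaks that mostly had been higher in IP. Without the length trend *aclA* (0.16) and *aclB* (0.21) were no longer called; the peak lengths came from the same reads.

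The median of the other 18 listed peaks, -0.01, was -0.12 with library size alone, by which all peaks moved to -0.13, and -0.030 to 0.020 with 1 library left out; *aclB* minus *aclA* was then 0.064 to 0.14, and 0.041 without the length trend, against 0.11. Signs of uncalled peaks near 0 turned, with no call gained. With library size alone AN3223 was at -0.088, *acuN* at -0.033, AN8274 at -0.070, *fasA* at -0.072 and -0.018 and the middle *fasB* peak at -0.069. Without the length trend AN3223 was at -0.19, AN8274 at -0.12, the upper *pkiA* peak at 0.095, *accA* at 0.010 and 0.024, the *fasB* peaks on both sides of the middle one and the lowest at 0.0072, 0.052 and 0.042 and AN4135 at 0.032. With 1 library left out the ranges were -0.039 to 0.064 for AN3223, -0.053 to 0.024 for *fbaA*, -0.096 to 0.046 for the upper *pkiA* peak, -0.089 to 0.12 for the lower *fasA* peak, -0.10 to 0.024, -0.066 to 0.024 and -0.082 to 0.011 for the lowest *fasB* peak and those on both sides of the middle one and -0.100 to 0.035 for AN4135. The cause of these changes was not tested. When a peak had to cover at least as much of the gene as it left free, 9 listed genes had a peak in place of 15. The summit list gave the same positions. The filter of 100 counts removed no peak of the 4.

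With the replicate block 83 peaks were called, and the values were 0.23 for *gpdA* (adjusted p = 0.0898), 0.34 for *aclA*, 0.45 for *aclB* and 0.59 for *sdeA*, with no call of the 4 changed. No deviation shared by replicate number was seen: deviations from the group means correlated at -0.11, -0.05 and 0.03 between IP and input libraries of numbers 1, 2 and 3. Each library correlated best with a library of another number. Such correlations cannot show whether the libraries were paired by design. The depth was 162458 to 377238 reads on peaks. The SE was 0.08 for each of the 4 long peaks and up to 0.14 on the shorter peaks of *accA* and *fasA*. Whether depth set this difference in SE was not tested.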
